A study of Homo sapiens with 24 samples.

Results

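The messenger RNAs of 10 enzymes that make asparagine, serine and one-carbon units were followed in HepG2 cells, an established human hepatoma line. The genes were taken by name from the count table, where all 10 of *ASNS*, *PHGDH*, *PSAT1*, *PSPH*, *SHMT1*, *SHMT2*, *MTHFD2*, *MTHFD1L*, *MTHFD1* and *ALDH1L2* were found among 18915 genes, and all 10 were among the 12685 genes that passed the expression filter. Treatment lasted 10 h. The groups received DMSO as vehicle, ISRIB at 50 nM, nelfinavir at 20 µM or bortezomib at 50 nM, and a further pair of groups received bortezomib at that dose with either of the other agents at the doses given. Bortezomib inhibits the proteasome, nelfinavir is a protease inhibitor that raises signalling through phosphorylated eIF2α and ATF4, and ISRIB blocks the effect of eIF2α phosphorylation on translation. Each of the 6 groups had 4 libraries, labelled as biological replicates, and all 24 came from this 1 cell line.

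Asparagine synthetase, ASNS, makes asparagine from aspartate and glutamine. Serine is built from the glycolytic intermediate 3-phosphoglycerate in turn by PHGDH, PSAT1 and PSPH, and the serine hydroxymethyltransferases then split serine into glycine and a folate-bound one-carbon unit. In mitochondria this is done by SHMT2. MTHFD2 then oxidises the unit, after which MTHFD1L releases it as formate or ALDH1L2 oxidises it to carbon dioxide. In the cytosol, SHMT1 and the trifunctional enzyme MTHFD1 work on the same folate intermediates for purine, thymidylate and methionine synthesis. ATF4, a transcription factor made when eIF2α is phosphorylated, is known to drive *ASNS* and many genes of serine and mitochondrial folate metabolism through composite C/EBP-ATF sites.

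Total counts per library ran from 5154533 to 6943164. Reads from the mitochondrial genome averaged 20.5% to 21.9% of counts in the groups without bortezomib, 33.8% with bortezomib alone, and 27.2% and 36.1% where nelfinavir or ISRIB was added to it. This share moved with bortezomib. With the mitochondrially encoded genes removed, 108 of 110 log2 fold changes of members kept direction and call, 1 gained a call and 1 changed sign. Any other part of this share in the changes below was not tested. The liver identity of the cells was visible in *ALB* (albumin), which had 3323 ± 167 CPM (counts scaled to a common library size) in DMSO, and in *AFP* (alpha-fetoprotein), which had 3014 ± 290. Of the markers of other cell types, *COL1A1* and *COL3A1* (fibroblast collagens) had at most 5 counts in a library, *CD68* (macrophages) averaged 2.29 to 4.54 CPM, and 5 others were not analysed here. Levels below are CPM after scaling by trimmed means of M values (TMM), given as mean ± SD over 4 libraries, and a change counts as called where the quasi-likelihood test of edgeR, adjusted over all 12685 genes, gave a value under 0.05. Reads of this protocol fall at the 3′ end, so CPM of different genes were not compared as levels. In bulk RNA, fewer cells that express a gene and less of its RNA per cell cannot be told apart.

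The stretch around the start site is shown for 3 members whose mRNA rose with both bortezomib and nelfinavir, because the known composite C/EBP-ATF core, TGATGNAA, lies in the first and second window but not in the third. Each window covers 250 bases before and 50 bases from the start site, from the RefSeq promoter table on GRCh38.p14. The coordinates given are those of its only exact match in GRCh37, the build of the counts, and capitals mark the core. The window of *ASNS* lies at chr7:97501671-97501970 (minus strand), that of *MTHFD1L* at chr6:151187372-151187671 (plus strand) and that of *MTHFD2* at chr2:74425492-74425791 (plus strand).
ASNS: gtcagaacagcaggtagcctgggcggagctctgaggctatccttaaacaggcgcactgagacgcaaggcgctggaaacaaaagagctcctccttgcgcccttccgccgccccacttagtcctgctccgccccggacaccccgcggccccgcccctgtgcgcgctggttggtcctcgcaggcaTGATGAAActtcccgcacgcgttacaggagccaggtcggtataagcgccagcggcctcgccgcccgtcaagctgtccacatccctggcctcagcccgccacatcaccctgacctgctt
MTHFD1L: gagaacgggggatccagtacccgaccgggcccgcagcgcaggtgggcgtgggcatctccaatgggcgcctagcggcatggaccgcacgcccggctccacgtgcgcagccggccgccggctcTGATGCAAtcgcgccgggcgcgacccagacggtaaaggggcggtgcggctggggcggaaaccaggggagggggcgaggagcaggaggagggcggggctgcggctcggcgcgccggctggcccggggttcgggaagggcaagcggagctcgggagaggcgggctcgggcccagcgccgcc
MTHFD2: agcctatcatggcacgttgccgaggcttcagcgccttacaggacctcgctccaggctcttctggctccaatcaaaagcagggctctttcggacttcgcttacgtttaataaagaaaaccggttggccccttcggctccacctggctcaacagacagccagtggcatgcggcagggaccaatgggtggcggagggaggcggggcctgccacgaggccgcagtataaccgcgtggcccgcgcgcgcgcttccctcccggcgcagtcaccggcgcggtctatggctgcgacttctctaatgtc
In *ASNS* the core read TGATGAAA at positions -68 to -61 from the start site, and in *MTHFD1L* it read TGATGCAA at -129 to -122. Windows were given for 7 of the 10 members, 11 windows in all, as a gene can have several start sites. The core lay on either strand in 2 of these 7 genes and in 4 of the 11 windows. The *MTHFD1L* windows that hold it overlap and share the same genomic site, so they are not separate matches. Of 35116 single promoter windows of the same length, 3.62% held it. Counts of genes and these percentages are in unlike units, here and for the motifs below. The cyclic AMP response element TGACGTCA was in 0 of the 7 and in 1.85% of all promoters. The E-box CACGTG was in *MTHFD1L* and *MTHFD1*, at -154 to -149 and -15 to -10, and in 7.26% of promoters. The antioxidant response element core TGACNNNGC was in *MTHFD2* on the minus strand at 7 to 15 after the start site, and in 13.3% of promoters. No match of one motif overlapped a match of another. No window was shown for *PSPH*, *SHMT2* or *ALDH1L2*. Of the other listed start sites, the windows of 2 in *MTHFD1L* hold the same core, at 25 to 32 and at -90 to -83, and those of the last start of *MTHFD1L* and of the second start of *ASNS* do not.

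Bortezomib alone raised 6 of the 10 members and lowered 2. All 4 mitochondrial enzymes, *ASNS* and *PSAT1* rose, and both cytosolic enzymes fell. For comparison, bortezomib changed 53.4% of all genes tested; with library totals in place of TMM, which moved the median log2 fold change of all genes by -0.50, the members gave 5 higher and 4 lower. The median log2 fold change was 0.87 over the members and 0.0017 over all genes, and the groups' libraries did not overlap for 7 members and for 50% of all genes. Nelfinavir alone raised 8 members and lowered 1, where 19.2% of all genes were called. Its median was 1.38 over the members against 0.0070 over all genes, and libraries did not overlap for 9 members and for 29.6% of all genes. The comparisons with DMSO share the same 4 DMSO libraries.

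**Figure D1:**
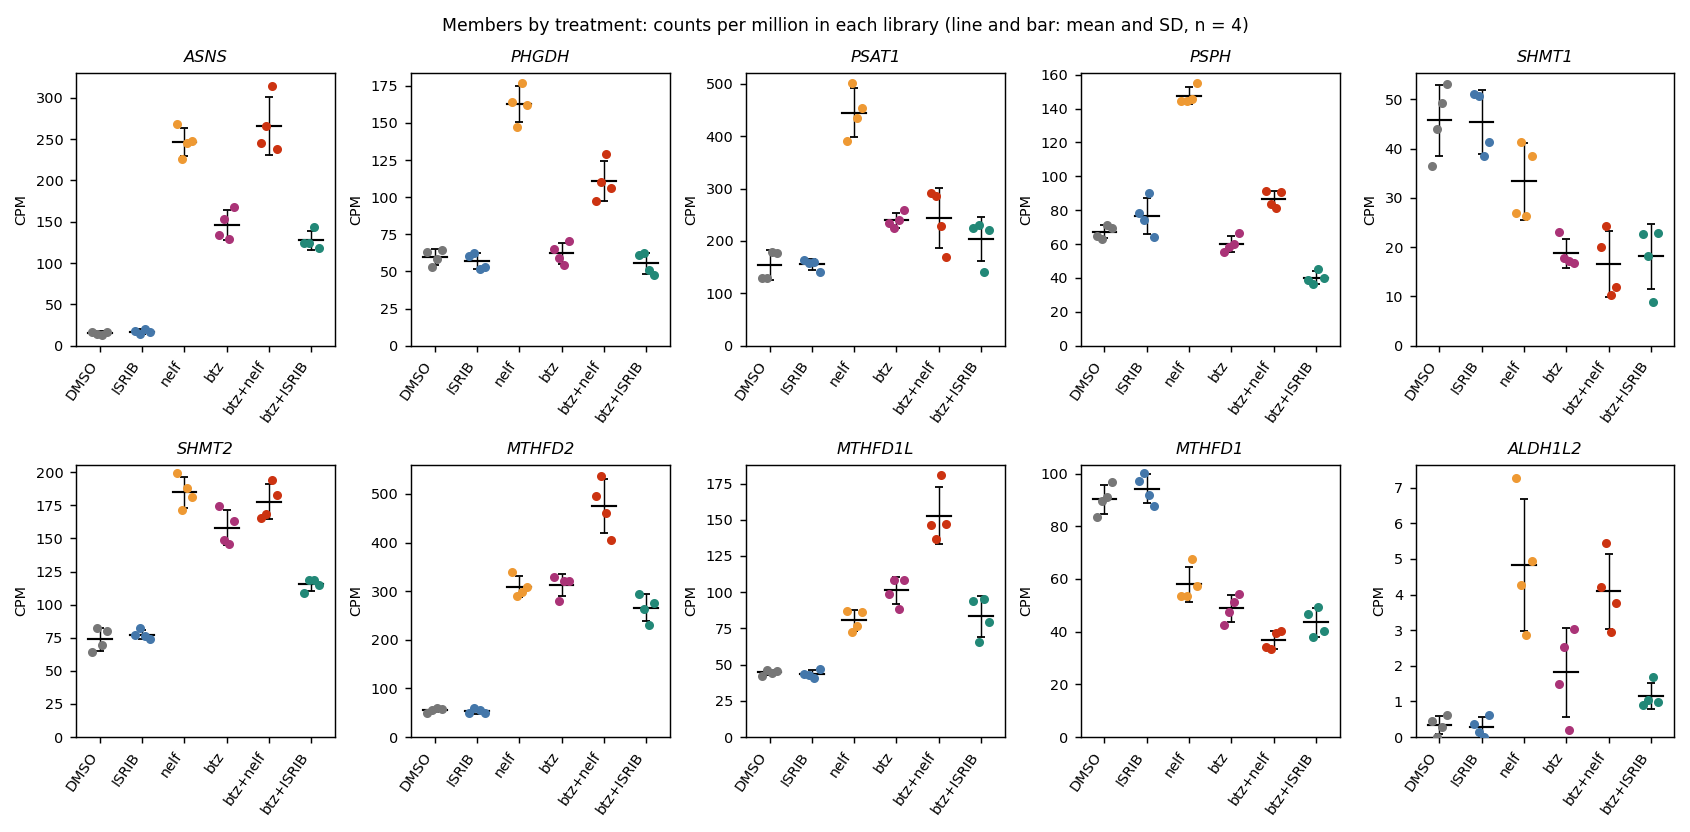
Levels of the 10 members in CPM (vertical axis, from 0, TMM-scaled) for the 6 groups (horizontal axis; nelf, nelfinavir; btz, bortezomib), with a point for each library and the mean and SD over 4 libraries. *ASNS* sits at 13.2 to 17.2 in DMSO and at 119 or more in all 16 libraries with bortezomib or nelfinavir, and *MTHFD1* is lower in those libraries than in DMSO.

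*ASNS* on chromosome 7 (97480989 to 97501854, minus strand, GRCh37) had 17.2, 14.1, 13.2 and 17.0 CPM in the 4 DMSO libraries. With bortezomib it had 134, 153, 129 and 168 CPM, and with nelfinavir 268, 227, 245 and 248. The bortezomib and nelfinavir libraries overlapped neither with DMSO nor with each other. The log2 fold change was 3.24 ± 0.123 (SE) with bortezomib (9.47-fold, adjusted p = 8.193e-21) and 4.001 ± 0.124 with nelfinavir (16-fold, adjusted p = 2.183e-22). By p, *ASNS* was the first of all 12685 genes in the nelfinavir comparison and the 16th in that of bortezomib.

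With nelfinavir added to bortezomib, *ASNS* had 246, 266, 315 and 238 CPM, all above the 4 libraries of bortezomib alone. The log2 fold change over bortezomib was 0.86 ± 0.106 (adjusted p = 1.449e-07). With ISRIB added to bortezomib it had 124, 124, 144 and 119 CPM, which overlapped with bortezomib alone (log2 fold change -0.19 ± 0.107, adjusted p = 0.252). In order of mean, bortezomib with nelfinavir (266 ± 34.6) did not differ from nelfinavir alone (247 ± 17; adjusted p = 0.388), and bortezomib did not differ from bortezomib with ISRIB, whereas these pairs differed from each other and from DMSO and ISRIB. ISRIB alone gave 17.4, 14.2, 20.6 and 16.2 CPM, which overlapped with the DMSO libraries. With library totals in place of TMM, *ASNS* turned from 0.11 to -0.40 in bortezomib with nelfinavir against nelfinavir (adjusted p = 0.001327).

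Of the 3 serine-building enzymes, all rose with nelfinavir and 1, *PSAT1*, was called with bortezomib. *PHGDH* (chromosome 1, 120191034 to 120286841), the first enzyme of the pathway, had 63.1, 53.0, 58.4 and 64.5 CPM in DMSO and 65.0, 58.8, 54.1 and 70.7 with bortezomib. These libraries overlapped, and the log2 fold change was 0.06 ± 0.109 (adjusted p = 0.695). With nelfinavir, *PHGDH* had 164, 147, 177 and 162 CPM, a rise of 1.44 ± 0.106 on the log2 scale (adjusted p = 9.369e-13) with every library above all DMSO libraries. Scaled by library totals alone, *PHGDH* fell by 0.44 with bortezomib (adjusted p = 0.001046). The shift of the median over all genes under that scaling, -0.50, was of the same sign and a like size.

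*PSAT1* (chromosome 9, 80912041 to 80945009), the aminotransferase of the second step, had 129, 129.6, 179.7 and 177 CPM in DMSO and 234, 225, 239.9 and 259 with bortezomib. Its log2 fold change with bortezomib was 0.64 ± 0.140 (adjusted p = 0.0002493), a call that library totals did not give (0.14, adjusted p = 0.363). Nelfinavir gave 390.3, 501, 434 and 455 CPM, a rise of 1.53 ± 0.141 (adjusted p = 2.609e-10) and the highest level of *PSAT1* in any group. With bortezomib and nelfinavir together it was at 244 ± 57.4 CPM, against 239.5 ± 14.6 with bortezomib alone (adjusted p = 0.923), and below nelfinavir alone in every library.

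*PSPH* (chromosome 7, 56078744 to 56119297, minus strand), the phosphatase that releases serine, had 65.0, 63, 71.5 and 69.6 CPM in DMSO. It had 55.6, 58.0, 59.8 and 66.8 CPM with bortezomib, which overlapped (log2 fold change -0.16 ± 0.0974, adjusted p = 0.157). This value passed the threshold without bortezomib replicate 4 (-0.27, adjusted p = 0.0305) and under library totals (-0.66, adjusted p = 9.813e-07). Nelfinavir gave 145, 145, 145.5 and 155 CPM, a rise of 1.13 ± 0.094 (adjusted p = 2.431e-11). The last 500 bases of *PSPH* share a stretch of 150 bases at 97.3% identity with the pseudogene *PSPHP1*, and those of *PSAT1* share 106 bases at 97.2% with *PSAT1P3*, so reads may have been split or lost there.

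The mitochondrial folate enzymes among the members rose with both agents. This did not extend to *MTHFD2L*, which is among the other folate enzymes listed below. It had 12.26 to 16.01 CPM in DMSO, 8.533 to 15.13 with bortezomib and 10.9 to 14.93 with nelfinavir. Its mean was lower with either agent than in DMSO, and the libraries overlapped. *SHMT2* (chromosome 12, 57623356 to 57628718), which moves the one-carbon unit from serine to folate, had 63.9, 82.4, 69.3 and 80.2 CPM in DMSO, 174, 149, 146 and 163 with bortezomib, and 199, 171, 188 and 182 with nelfinavir. All libraries of either agent lay above all DMSO libraries. The log2 fold changes were 1.10 ± 0.0894 with bortezomib (adjusted p = 2.923e-12) and 1.32 ± 0.0887 with nelfinavir (adjusted p = 1.349e-13).

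*MTHFD2* (chromosome 2, 74413299 to 74444692), the mitochondrial dehydrogenase and cyclohydrolase, had 49.0, 56.0, 59.5 and 58.5 CPM in DMSO. It had 329, 279, 322 and 322 with bortezomib and 340.3, 291, 298 and 308 with nelfinavir. The rises were alike in size, 2.49 ± 0.1 on the log2 scale with bortezomib (adjusted p = 3.858e-20) and 2.47 ± 0.0997 with nelfinavir (adjusted p = 1.384e-19). The agents compared directly differed by -0.02 ± 0.0927 (nelfinavir minus bortezomib, adjusted p = 0.899), a difference that was 0.46 with library totals alone (adjusted p = 8.037e-05).

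*MTHFD1L* (chromosome 6, 151186815 to 151423023), which releases formate in mitochondria, had 42.4, 46.3, 44.2 and 45.5 CPM in DMSO, 99.0, 109, 88.7 and 109 with bortezomib, and 87.1, 72.4, 76.4 and 86.5 with nelfinavir. The groups did not overlap with DMSO or with each other. *MTHFD1L* was the 1 member higher with bortezomib than with nelfinavir, at a log2 difference of -0.33 ± 0.107 (nelfinavir minus bortezomib, adjusted p = 0.0113), which with library totals alone was 0.14 (adjusted p = 0.282) and without any 1 of 3 libraries (bortezomib replicates 2 and 4, nelfinavir replicate 2) missed the threshold, as it did with no expression filter (adjusted p = 0.0561). In that comparison 48.7% of all genes were called, and 7 members were higher with nelfinavir, while library totals gave 9 higher and 0 lower. Of the 7, *SHMT2* lost its call without nelfinavir replicate 1 or 3 or bortezomib replicate 3 (adjusted p = 0.0507 to 0.0927), and *ALDH1L2* without nelfinavir replicate 1 or bortezomib replicate 3 (adjusted p = 0.0903 and 0.0594).

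*ALDH1L2* (chromosome 12, 105413562 to 105501421, minus strand), the mitochondrial formyl-folate dehydrogenase, was counted at only 0 to 5 reads in a DMSO library. It had 0.465, 0, 0.280 and 0.613 CPM in DMSO, 1.497, 2.52, 0.211 and 3.03 with bortezomib, and 7.29, 4.26, 2.86 and 4.93 with nelfinavir. The nelfinavir libraries were above all DMSO libraries, and 1 bortezomib library lay within them. The log2 fold change was 3.73 ± 0.581 with nelfinavir (adjusted p = 1.014e-05) and 2.33 ± 0.652 with bortezomib (adjusted p = 0.003064), and both rest on few reads in DMSO.

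The cytosolic members went the other way. *SHMT1* (chromosome 17, 18231174 to 18266877, minus strand) had 36.5, 44, 49.3 and 53.1 CPM in DMSO and 23.1, 17.8, 17.1 and 16.9 with bortezomib, with no overlap. It fell by 1.29 ± 0.221 on the log2 scale (adjusted p = 9.465e-06). With nelfinavir it had 27, 41.4, 26.4 and 38.6 CPM, which overlapped with DMSO (log2 fold change -0.46 ± 0.205, adjusted p = 0.128). In the absence of the expression filter, or in a model of only the groups compared, this value passed the threshold (adjusted p = 0.0136 and 0.0110). The 3′ end of *SHMT1* overlaps that of *SMCR8* on the opposite strand by 197 bases, and the strand setting of the counting is not given in the sources used here.

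*MTHFD1* (chromosome 14, 64854749 to 64930175) had 83.6, 89.7, 91.0 and 96.8 CPM in DMSO, 42.6, 47.5, 51.3 and 54.2 with bortezomib, and 53.5, 53.6, 67.6 and 57.4 with nelfinavir. Neither agent's libraries reached those of DMSO. Nelfinavir against bortezomib gave 0.25 ± 0.107 (adjusted p = 0.0553), just short of the threshold, which was passed under RLE factors, library totals, DESeq2, no expression filter, removal of mitochondrially encoded genes and a replicate block (adjusted p = 1.352e-06 to 0.0486). *MTHFD1* fell by 0.88 ± 0.106 on the log2 scale with bortezomib (adjusted p = 1.433e-08) and by 0.64 ± 0.102 with nelfinavir (adjusted p = 1.668e-05). Genes on the opposite strand also cover the 3′ ends of *SHMT2* (*NDUFA4L2*), *MTHFD1* (*ZBTB25*), *MTHFD2* (*SLC4A5*) and *ALDH1L2* (*NOPCHAP1*). That of *MTHFD1L* is covered by a long non-coding RNA, and *MTHFD2* also by ENSG00000264324, which is in the count table while *SLC4A5* is not. The last 500 bases of an *ASNS* transcript lie within a long non-coding RNA model on the same strand that does not reach the annotated end of the gene.

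**Figure D2:**
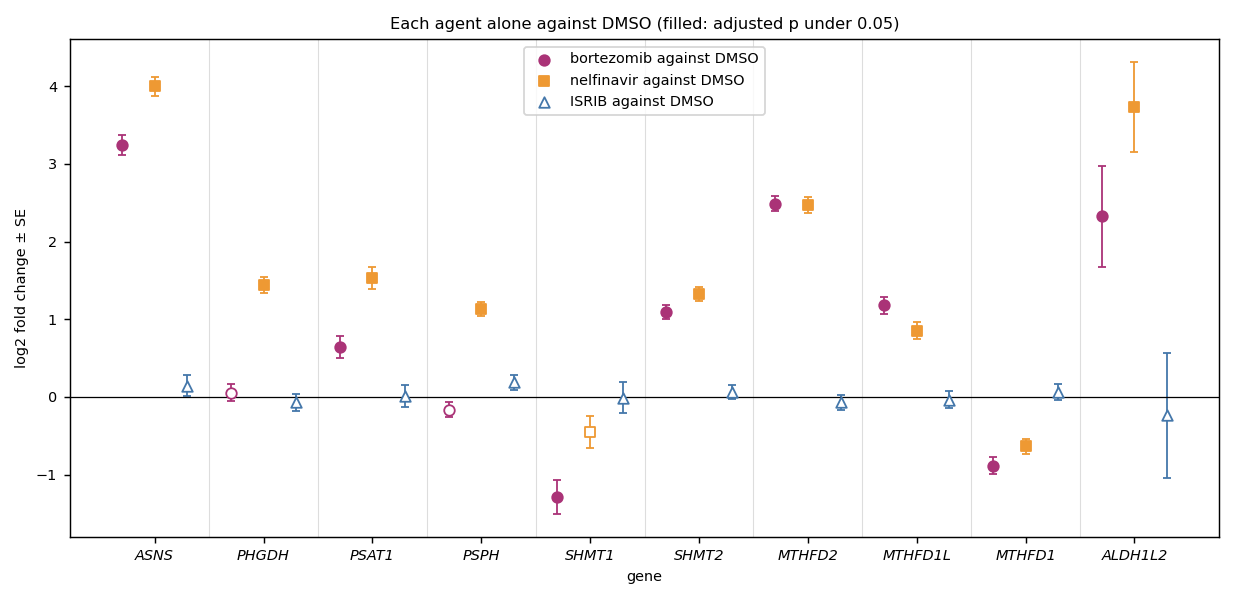
Log2 fold change against DMSO (vertical axis; bars, SE) of each member (horizontal axis) with bortezomib (circles), nelfinavir (squares) and ISRIB (triangles) alone, filled where the adjusted p is under 0.05. *ASNS* reached 3.24 with bortezomib and 4.001 with nelfinavir, *SHMT1* and *MTHFD1* lie below 0 with both, and all 10 triangles are open.

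ISRIB alone moved no member past the threshold. Its log2 fold changes ran from -0.24 (*ALDH1L2*) to 0.19 (*PSPH*), and the libraries of ISRIB and DMSO overlapped for all 10. The main edgeR fit called 0% of all genes, 0 in number. At an unadjusted p under 0.05 there were 703 genes, of which 0 were members. DESeq2 called 21 genes and 0 members. edgeR called 39 genes with no expression filter and 80 in a model of only the groups compared. For *PSPH*, ISRIB gave 78.3, 74.1, 90.0 and 64.5 CPM (adjusted p = 0.906).

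The balance of mitochondrial to cytosolic enzyme was also taken within each library, where the scaling cancels. It restates the changes of the genes above and is given as a description. In exact permutation tests of 10 ratio comparisons, no adjusted p was under 0.05 (lowest 0.0571). With 4 against 4 libraries the exact p cannot be under 0.0286, and every comparison without overlap had that value. The lowest adjusted p reflects this floor. The log2 ratio of *SHMT2* to *SHMT1* counts was 0.70 ± 0.190 in DMSO, 3.08 ± 0.146 with bortezomib and 2.50 ± 0.420 with nelfinavir (SD, n = 4 each). The log2 ratio of *MTHFD1L* to *MTHFD1* was -1.01 ± 0.0621 in DMSO, 1.05 ± 0.199 with bortezomib and 0.48 ± 0.228 with nelfinavir. All libraries of either agent lay above all DMSO libraries in both ratios. With nelfinavir added to bortezomib, *MTHFD1L* to *MTHFD1* was at 2.05 ± 0.136, without overlap with bortezomib alone, and *SHMT2* to *SHMT1* at 3.50 ± 0.691, with overlap. With ISRIB added to bortezomib the ratios were 2.75 ± 0.681 and 0.93 ± 0.0990, and with ISRIB alone 0.78 ± 0.168 and -1.11 ± 0.145, each overlapping with its control.

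**Figure D3:**
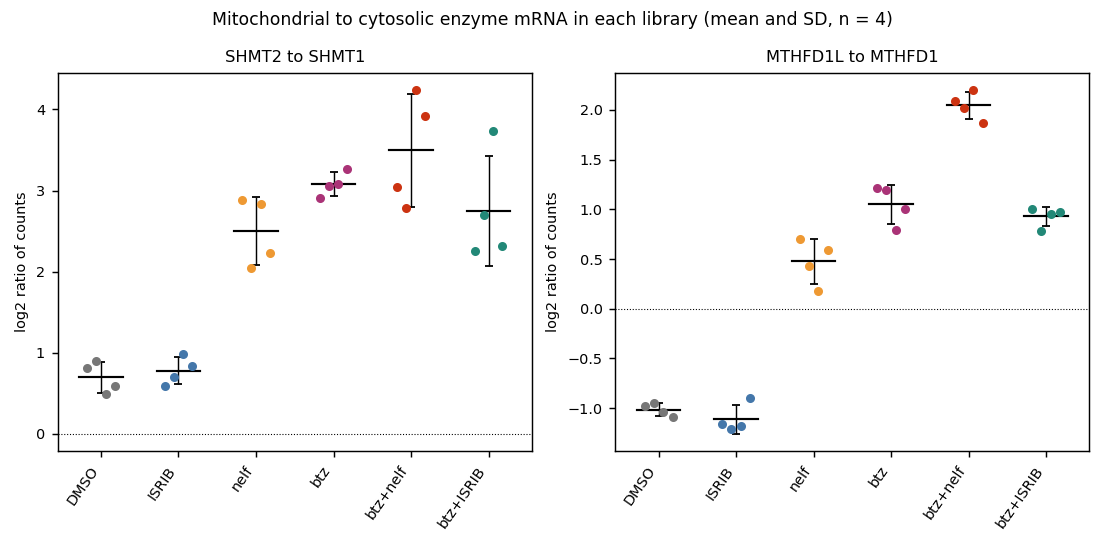
Log2 ratio of counts of the mitochondrial to the cytosolic enzyme in each library (points; line and bar, mean and SD, n = 4) by group (nelf, nelfinavir; btz, bortezomib), for *SHMT2* to *SHMT1* and *MTHFD1L* to *MTHFD1*. The second ratio is lower in all DMSO and ISRIB libraries than in the other 16, and is highest in bortezomib with nelfinavir. Only differences between groups are read, because levels of different genes were not compared.

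Nelfinavir added to bortezomib asks how the pathway responds when eIF2α and ATF4 signalling is pushed further in cells whose proteasome is inhibited. The comparisons of either co-treatment with bortezomib share the same 4 bortezomib libraries. Relative to bortezomib alone, 5 members rose (*ASNS*, *PHGDH*, *PSPH*, *MTHFD2* and *MTHFD1L*) and *MTHFD1* fell, where 28.9% of all genes were called. Of the 10 hepatocyte markers, 8 fell and 0 rose in this comparison, and the part of this in the members' changes was not tested. *PHGDH* had 97.7, 110.4, 129 and 106 CPM, all above bortezomib alone (log2 fold change 0.84 ± 0.109, adjusted p = 4.144e-07). *MTHFD2* had 496, 536, 462 and 406 CPM, the highest level of this gene in any group (0.60 ± 0.0931 over bortezomib, adjusted p = 7.796e-06). *MTHFD1L* reached 147, 137, 181 and 147 CPM, also its highest (0.59 ± 0.107, adjusted p = 6.873e-05), and *PSPH* 91.3, 83.6, 81.5 and 90.5 (0.53 ± 0.0982, adjusted p = 9.969e-05). These genes did not overlap with bortezomib alone in any library.

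*MTHFD1* had 34.2, 33.6, 39.5 and 40.2 CPM and fell by 0.40 ± 0.112 on the log2 scale (adjusted p = 0.006329). That call was lost without bortezomib replicate 4 (adjusted p = 0.0569) or without replicate 2 of the co-treatment (adjusted p = 0.0529). *SHMT2* at 178 ± 13.2 CPM was not separated from bortezomib alone (0.17 ± 0.0878, adjusted p = 0.145), nor was *ALDH1L2* at 4.09 ± 1.05 (1.16 ± 0.513, adjusted p = 0.0890). *SHMT2* passed the threshold without replicate 1 of bortezomib or of the co-treatment (adjusted p = 0.0481 and 0.0474), and *ALDH1L2* did in DESeq2 and without bortezomib replicate 4 (adjusted p = 0.0483 and 0.0429). *SHMT1* stayed low, at 20.1, 24.3, 10.2 and 12.01 CPM.

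The change that nelfinavir brought was tested for a difference between bortezomib-treated and DMSO-treated cells. It was smaller under bortezomib for 7 members, and larger for 0, where 19.7% of all genes had a called interaction. For *ASNS* the log2 change on adding nelfinavir was 4.001 without and 0.86 with bortezomib, a difference of -3.14 ± 0.160 (adjusted p = 3.07e-16). For *MTHFD2* the same changes were 2.47 and 0.60 (difference -1.87 ± 0.134, adjusted p = 2.196e-12), for *PSAT1* 1.53 and 0.02 (-1.51 ± 0.197, adjusted p = 7.845e-07) and for *SHMT2* 1.32 and 0.17 (-1.15 ± 0.124, adjusted p = 1.859e-08). *ALDH1L2* (-2.58 ± 0.795), *PHGDH* (-0.61 ± 0.150) and *PSPH* (-0.60 ± 0.135) also differed. *MTHFD1L* was 0.85 without and 0.59 with bortezomib, and this difference of -0.26 ± 0.152 missed the threshold (adjusted p = 0.246).

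Seen from nelfinavir, adding bortezomib raised *MTHFD2* and *MTHFD1L* and lowered 5 members, where 57.1% of all genes were called. With library totals the counts were 1 higher and 7 lower. All 10 hepatocyte markers fell in this comparison. The 5 were the whole serine-building trio and both cytosolic enzymes. *PSAT1* fell by 0.87 ± 0.139, *PSPH* by 0.76 ± 0.0943 and *PHGDH* by 0.55 ± 0.104 on the log2 scale (adjusted p = 2.577e-06, 2.357e-08 and 3.137e-05), with no overlap between the groups' libraries. *MTHFD1L* rose by 0.92 ± 0.107 (adjusted p = 6.326e-09) and *MTHFD2* by 0.62 ± 0.0926 (adjusted p = 8.611e-07), of which the latter was 0.11 with library totals alone (adjusted p = 0.316). Library totals moved the median over all genes by -0.51 in this comparison.

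ISRIB added to bortezomib lowered *PSPH* and *SHMT2* and raised 0 members, where 12.2% of all genes were called. All 10 log2 fold changes were below 0, with a median of -0.23 over the members and 0.0065 over all genes, and 8 of them missed the threshold. Of the hepatocyte markers, 3 rose and 2 fell. *PSPH* had 39.0, 36.7, 45.5 and 39.7 CPM, below every library of bortezomib alone and of DMSO, and fell by 0.58 ± 0.103 (adjusted p = 0.0001787). *SHMT2* had 109, 119, 119 and 115 CPM, below every bortezomib library and above every DMSO library, and fell by 0.45 ± 0.0892 (adjusted p = 0.000626). *MTHFD2* at 266 ± 27 CPM and *MTHFD1L* at 83.5 ± 14.2 CPM had values of -0.23 ± 0.0936 and -0.28 ± 0.109, with adjusted p = 0.102 and 0.0932. With library totals alone both passed the threshold (adjusted p = 0.0309 and 0.0490), and *MTHFD1L* also did without replicate 3 of the co-treatment (adjusted p = 0.0468).

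The effect of ISRIB differed between bortezomib-treated and DMSO-treated cells for the same 2 members, where 4.82% of all genes had a called interaction. For *PSPH* the log2 change on adding ISRIB was 0.19 without and -0.58 with bortezomib (difference -0.77 ± 0.140, adjusted p = 0.0006441), and for *SHMT2* it was 0.07 and -0.45 (difference -0.52 ± 0.126, adjusted p = 0.0109). Against DMSO, cells with bortezomib and ISRIB had 6 members higher and 3 lower (3 and 4 with library totals), where 54.3% of all genes were called, with *ASNS* at 3.05 ± 0.123 and *MTHFD2* at 2.26 ± 0.0998 on the log2 scale (adjusted p = 3.752e-20 and 4.361e-19). *PSAT1* at 0.41 ± 0.141 (adjusted p = 0.0142) and *ALDH1L2* at 1.69 ± 0.703 (adjusted p = 0.0420) had the largest adjusted p of the 6. *PSAT1* missed the threshold without DMSO replicate 1 or 2 or without co-treatment replicate 1, 2 or 4 (adjusted p = 0.0656 to 0.118), and *ALDH1L2* missed it without DMSO replicate 2 or 3 or without any 1 co-treatment library (adjusted p = 0.0531 to 0.138). The library-totals scaling, which moved the median over all genes by -0.56 here, turned *PSAT1* to -0.16 (adjusted p = 0.312).

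**Figure D4:**
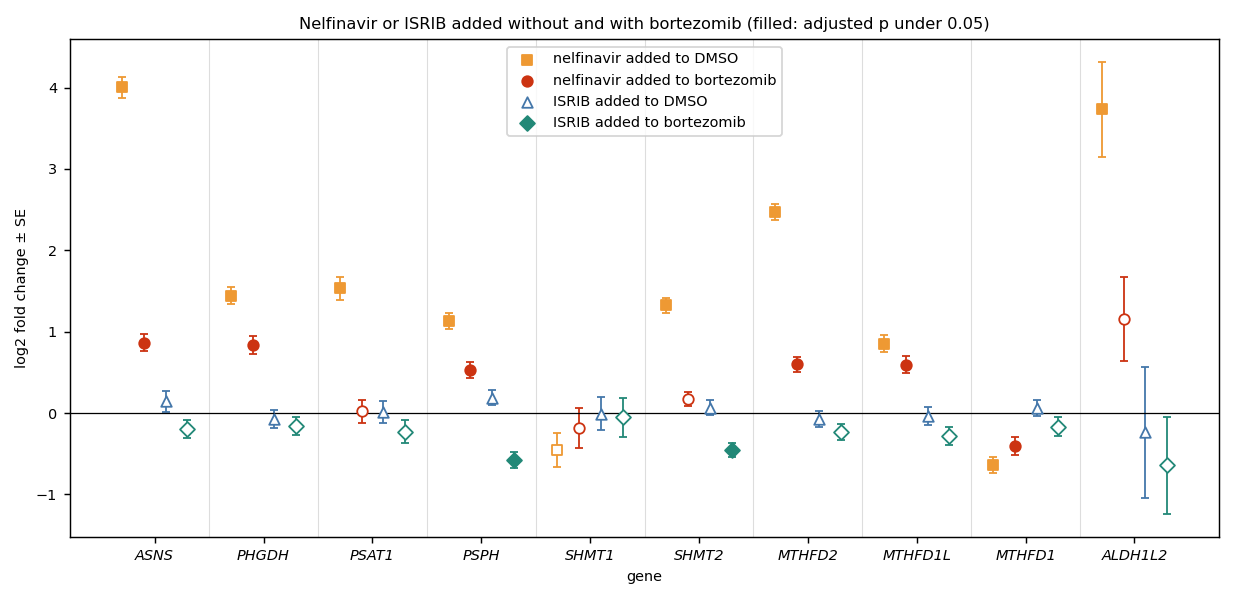
Log2 fold change (vertical axis; bars, SE) of each member (horizontal axis) on adding nelfinavir to DMSO (squares) or to bortezomib (circles), and ISRIB to DMSO (triangles) or to bortezomib (diamonds), filled where the adjusted p is under 0.05. For *ASNS* the square is at 4.001 and the circle at 0.86, and the diamonds are filled for *PSPH* and *SHMT2*.

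The co-treatments compared directly gave 7 members higher with nelfinavir than with ISRIB and 0 lower, where 24.4% of all genes were called, while 6 of the 10 hepatocyte markers were lower and 0 higher. *ASNS* differed by 1.06 ± 0.107 on the log2 scale (adjusted p = 4.121e-09), *PSPH* by 1.11 ± 0.102 (adjusted p = 4.857e-10), *PHGDH* by 1.00 ± 0.110 (adjusted p = 2.276e-08) and *MTHFD2* by 0.83 ± 0.0937 (adjusted p = 3.353e-08). The libraries of the groups did not overlap for these 7 members and for 18.3% of all genes. *PSAT1* (0.25 ± 0.140), *SHMT1* (-0.13 ± 0.244) and *MTHFD1* (-0.24 ± 0.113) missed the threshold. *PSAT1* passed it with no expression filter (0.30, adjusted p = 0.0216) and without replicate 4 of the co-treatment with nelfinavir (0.43, adjusted p = 0.0159).

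*ATF4*, a known regulator of many of these genes, was at 233 ± 10.8 CPM in DMSO and 230.4 ± 17.2 in ISRIB. It stood at 603 ± 66.0 CPM with bortezomib and at 866 ± 87.7 with nelfinavir. The co-treatment with nelfinavir had 1078 ± 244 CPM and that with ISRIB 548 ± 81.4. Its mRNA rose by 1.37 ± 0.117 with bortezomib (adjusted p = 8.792e-12) and by 1.90 ± 0.118 with nelfinavir (adjusted p = 2.161e-14) on the log2 scale. Nelfinavir added to bortezomib raised it by 0.84 ± 0.115 (adjusted p = 1.15e-06), and with ISRIB added the value was -0.14 ± 0.115 (adjusted p = 0.478). ISRIB acts downstream on translation, and the ATF4 protein was not measured in these libraries.

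Over the 24 libraries, the log2 CPM of *ASNS* had a Pearson r of 0.98 with *MTHFD2*, 0.95 with *SHMT2*, 0.89 with *MTHFD1L*, 0.74 with *PSAT1*, 0.64 with *PHGDH* and 0.24 with *PSPH*. With *MTHFD1* it was -0.87 and with *SHMT1* -0.71. These values are descriptions, since the libraries fall into 6 treatment groups and each library gives both values. Of all genes, those most like *ASNS* were *GARS* (r = 0.98) and *MTHFD2*, those most like *MTHFD2* were *CTH* and *S100P* (0.99 each), and those most like *MTHFD1L* were *SESN2* and *JMY* (0.98 each). *PSPH* was most like *ZBED3* (0.97) and *SAT2* (0.93), *PHGDH* like *NUPR1* (0.94) and *CHCHD10* (0.93), and *PSAT1* like *XPOT* (0.89) and *INHBE* (0.88). *SHMT2* was most like *STC2* and *EIF2S2* (0.97 each), *ALDH1L2* like *WARS* (0.91) and *SLC51A* (0.90), *SHMT1* like *CALM2* (0.97) and *SLC25A4* (0.96), and *MTHFD1* like *MRPL20* and *XRCC5* (0.96 each).

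Other genes around the pathway were described in the same way. Of 48 genes in 6 lists (other folate enzymes, folate and serine transporters, glycine cleavage and serine breakdown, methionine cycle, de novo purine synthesis, and asparagine, aspartate and glutamine metabolism), 44 were tested. Bortezomib raised 8 and lowered 22 of them, with 53.4% of all genes called and a median log2 fold change of -0.38 against 0.0017 over all genes, and with library totals it raised 1 and lowered 32. Of the folate enzymes, 2 rose and 6 of 11 fell, and of the 6 purine synthesis genes 1 rose and 5 fell. *MAT1A*, the liver enzyme for S-adenosylmethionine, went from 161 ± 11.1 to 52.9 ± 4.46 CPM (log2 fold change -1.60 ± 0.0977, adjusted p = 1.738e-15), and *ASRGL1*, an asparaginase, from 107 ± 2.84 to 48.2 ± 4.19 (-1.16 ± 0.101, adjusted p = 1.495e-11). *GOT1*, the cytosolic aspartate aminotransferase, went from 72.6 ± 5.39 to 171 ± 13.1 (1.24 ± 0.0911, adjusted p = 2.229e-13).

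Nelfinavir raised 3 and lowered 7 of the 44 genes (median -0.11), against 19.2% of all genes called, and the 3 became 1 or 2 when any 1 library was left out. ISRIB changed 0 in the main edgeR fit. *GLDC*, the decarboxylase of glycine cleavage, went from 14.3 ± 3.66 CPM in DMSO to 5.10 ± 2.56 with nelfinavir (log2 fold change -1.48 ± 0.348, adjusted p = 0.001983). On top of bortezomib, nelfinavir raised 2 and lowered 9 of the 44, against 28.9% of all genes called, and ISRIB raised 1 and lowered 7, against 12.2%. *GLDC* fell again with nelfinavir on bortezomib, from 7.61 ± 4.28 to 3.43 ± 1.76 CPM (-1.16 ± 0.422, adjusted p = 0.0362). *GOT1* rose further with nelfinavir (0.47 ± 0.0887, adjusted p = 0.0001315) and fell with ISRIB (-0.29 ± 0.0899, adjusted p = 0.0305). Of the 10 hepatocyte markers, bortezomib lowered 6 and raised 0 against DMSO, where 53.4% of all genes were called, and nelfinavir raised 2 and lowered 0, where 19.2% were called.

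**Figure D5:**
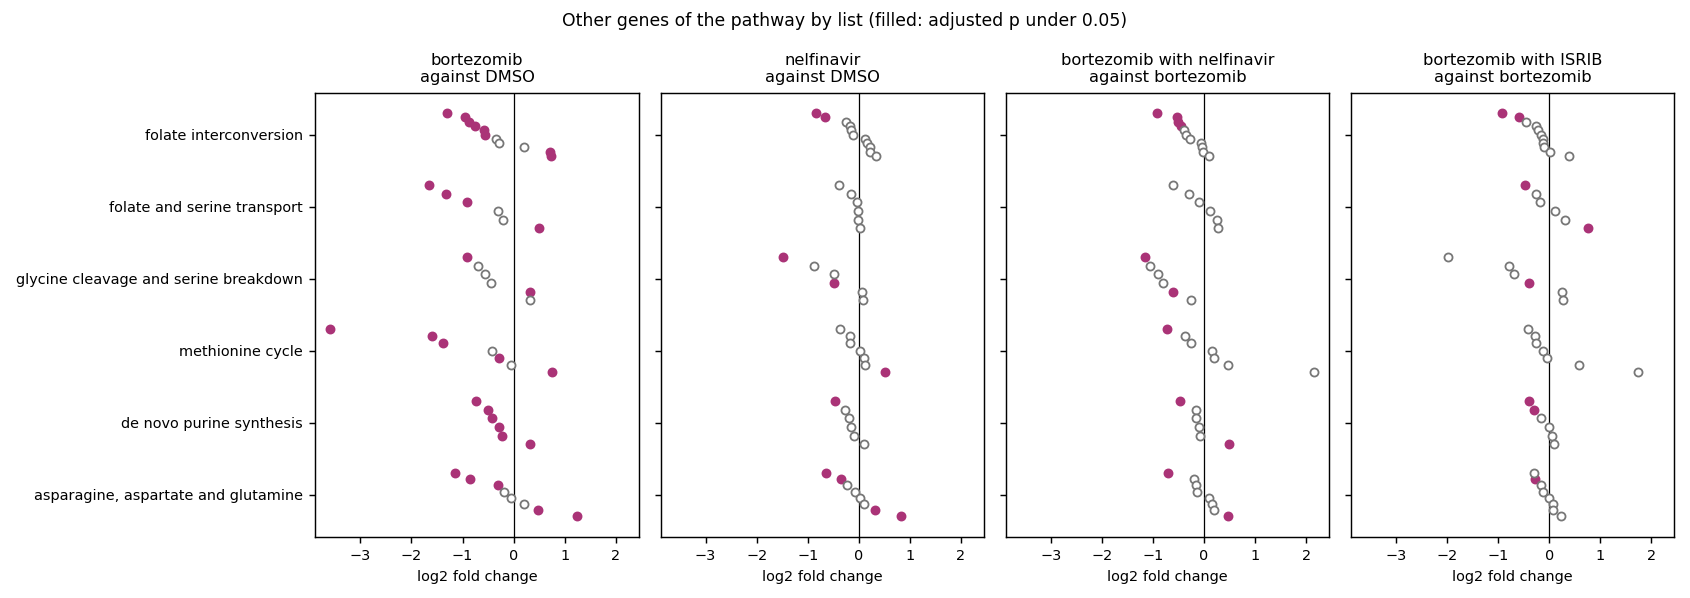
Log2 fold change (horizontal axis) of each of 44 other pathway genes (points; no error bars) by list (vertical axis) in 4 comparisons, filled where the adjusted p is under 0.05. With bortezomib 22 filled points lie below 0 and 8 above, and with nelfinavir 7 below and 3 above.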

How the data were processed

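The authors prepared QuantSeq 3′ mRNA-Seq FWD libraries, trimmed reads with cutadapt 2.8 and aligned them with STAR to hg19 in an nf-core pipeline, and counted them over Ensembl GRCh37 models of protein coding, lincRNA and antisense genes. The deposited values are raw read counts per gene, not normalized, for 18915 genes in 24 libraries; the strand setting and whether molecular identifiers were used are not stated in the sources used here. All 10 members and the gene lists were chosen with earlier results of these data known.

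Low genes were removed by filterByExpr (count of 5, total of 25). TMM factors and edgeR 4.0.16 in R 4.3.3 were used for testing: 1 quasi-likelihood model of all 24 libraries with a coefficient per group, and Benjamini-Hochberg adjustment over 12685 genes. The pipeline was tested on simulated counts. Interactions are the change on adding an agent with bortezomib minus that without. Ratios (pseudocount 0.5 on counts) were computed in Python 3.11.15 and restate changes already tested gene by gene. Their exact permutation tests, adjusted over 10 comparisons, compare 4 with 4 libraries and cannot give an exact p under 0.0286. Likeness used log2 CPM with a prior count of 2. Copies (at least 80 bases, 97% identity) were sought with BLAST 2.17.0 in the last 500 bases, and motifs on both strands of 300-base windows. Beside the members and *ATF4*, pathway genes were named if called, changed over 2-fold and among the 2 per direction with the smallest p. The 2 genes most like each member were also named. The other cell-type markers, copies, overlapping genes and *MTHFD2L* were named because a statement rests on them. Replicates of a group differed beyond sampling noise (chi-square per degree of freedom at least 2.19), so no 2 libraries were 1 library deposited again. In bortezomib with nelfinavir this value was 4.13 between replicates 1 and 2 and 7.71 between 3 and 4, but 14.1 to 21.8 across these pairs. Mitochondrial reads were 28.5% and 29.6% in replicates 1 and 2, and 24.9% and 25.6% in 3 and 4. The spread of this group includes that split, whose cause was not tested. The largest value, 23.7, was between replicates 3 and 4 of bortezomib with ISRIB. P-values and the SE of log2 fold changes come from the quasi-likelihood fit and reflect the spread between libraries. Errors on CPM and ratios are the SD over 4 libraries. Alternatives were RLE factors, library totals alone, DESeq2 1.42.0, no filter, removal of the 13 mitochondrially encoded genes, a fit restricted to the compared groups, a replicate block and each library left out.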

Additional observations from a re-analysis of the deposited data

Results flagged for a closer look

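In 5 of 72 sets of 4 libraries (10 genes and 2 ratios in 6 groups), 1 library stood apart from the other 3, by a gap past Dixon's 95% critical value, and chance sets apart about 1 in 20 such groups. *PSAT1* had 141.5 CPM in bortezomib with ISRIB replicate 3, against 221 to 231 in the others. *MTHFD2* had 279 CPM in bortezomib replicate 2, against 322 to 329. *SHMT1* had 23.1 CPM in bortezomib replicate 1, against 16.9 to 17.8. *PSPH* had 155 CPM in nelfinavir replicate 4, against 145 to 145.5. The log2 ratio of *MTHFD1L* to *MTHFD1* was -0.90 in ISRIB replicate 4, against -1.21 to -1.16.

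For 7 members, the change on adding nelfinavir differed between cells with and without bortezomib by the interaction test. The log2 differences were -3.14 for *ASNS*, -2.58 for *ALDH1L2*, -1.87 for *MTHFD2*, -1.51 for *PSAT1*, -1.15 for *SHMT2*, -0.61 for *PHGDH* and -0.60 for *PSPH*. The call for *ALDH1L2* was lost without nelfinavir replicate 1 (-2.31, adjusted p = 0.0521) or without bortezomib replicate 4 (-2.19, adjusted p = 0.0621). For 2 members, the change on adding ISRIB differed in the same way, by -0.77 for *PSPH* and -0.52 for *SHMT2*.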

How the results depend on the processing

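Of 1807 recomputed log2 fold changes of members, 1704 kept both direction and call, 28 lost the call, 25 gained it and 50 changed sign. Every sign change concerned a value that had missed the threshold, except those of *PSAT1* and *MTHFD1L* named below.

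Scaling by library totals alone gave 4 members lower with bortezomib, 4 lower with ISRIB added to bortezomib, 1 higher with bortezomib added to nelfinavir, 3 higher in bortezomib with ISRIB against DMSO and 0 lower in nelfinavir against bortezomib, and 1 pathway gene higher with bortezomib. It turned *PHGDH* with bortezomib to -0.44, *PSAT1* to -0.0052 with ISRIB, -0.0164 with nelfinavir added to bortezomib and -0.16 in bortezomib with ISRIB against DMSO, *ASNS* with bortezomib added to nelfinavir to -0.40, and, in nelfinavir against bortezomib, *MTHFD2* to 0.46 and *MTHFD1L* to 0.14. That scaling by construction keeps the shift in all genes. *MTHFD2* in that comparison was also 0.0106 with RLE factors, 0.0107 with DESeq2, 0.0459 with no filter, 0.0245 without mitochondrially encoded genes and 0.000758 with only the groups compared. *SHMT1* with ISRIB was 0.0027 with RLE factors and 0.0020 with DESeq2. With no filter, *PHGDH* with bortezomib was -0.0189, 2 members were lower and 1 pathway gene higher with nelfinavir, and 0 members were lower in nelfinavir against bortezomib. With only the groups compared, 2 members were lower with nelfinavir, 1 pathway gene was higher with nelfinavir added to bortezomib, and 0 were higher and 2 lower with ISRIB added to bortezomib. Before the start site alone, 0 members held the antioxidant element core. The causes of these changes were not tested.

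Leaving out 1 library at a time gave, with nelfinavir against DMSO, 1 to 2 pathway genes higher and 4 to 7 lower; with nelfinavir added to bortezomib, 0 to 1 members lower and 2 to 4 pathway genes higher and 5 to 8 lower; with ISRIB added to bortezomib, 0 to 2 pathway genes higher; and in nelfinavir against bortezomib, 0 to 1 members lower. The fewest lower pathway genes came without nelfinavir replicate 4 (4) and without bortezomib replicate 3 (5), and the most higher came without bortezomib with nelfinavir replicate 4 (4). Log2 fold changes ran from -0.0658 to 0.0910 for *PHGDH* with bortezomib. With ISRIB they ran from -0.0620 to 0.0965 for *PSAT1*, -0.103 to 0.0709 for *SHMT1* and -0.90 to 0.18 for *ALDH1L2*. With nelfinavir added to bortezomib they ran from -0.0301 to 0.195 for *PSAT1* and -0.37 to 0.0146 for *SHMT1*, and with ISRIB added from -0.18 to 0.18 for *SHMT1*. With bortezomib added to nelfinavir they ran from -0.0055 to 0.15 for *ASNS* and -0.43 to 0.0189 for *ALDH1L2*. They ran from -0.33 to 0.0682 for *SHMT1* between the co-treatments, from -0.0631 to 0.0505 for *MTHFD2* in nelfinavir against bortezomib, and, for the ISRIB interaction, from -0.17 to 0.19 for *SHMT1* and -0.82 to 0.26 for *ALDH1L2*.

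The labels do not tie equal replicate numbers to 1 culture or day. Of the same-numbered pairs of libraries, 10 of 60 correlated above 0.1, against 7 of 180 other pairs. In the sample titles, replicate numbers follow the order of the library numbers in every group except ISRIB. Its libraries may be mispaired in this check and in the replicate block. A replicate block left 6 members higher and 2 lower with bortezomib and 8 higher and 1 lower with nelfinavir, and gave 1 further call, *MTHFD1* in nelfinavir against bortezomib (0.24, adjusted p = 0.0486), which 5 other alternatives and 4 fits without 1 library (nelfinavir replicate 1 or 2, bortezomib replicate 3 or 4) also gave. Depth limited *ALDH1L2*, with 0 to 61 counts per library.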
